A study of Mus musculus with 120 samples.

Results

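Transcripts of 9 complement genes were followed in the immunological niche (IN), a porous polycaprolactone scaffold placed under the skin that fills with host cells and is taken out as a biopsy. The genes were *C1qa*, *C1qb* and *C1qc*, *C2*, *C3*, *C4b*, *Cfb*, *Hc* and *C5ar1*. They were chosen by name, with earlier results of these data known, and made up 9 of the 55487 gene rows of the count tables. Each of the 9 was present in both tables and passed the filter on low counts in every test.

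Complement is a cascade of plasma proteins that tags targets for uptake, recruits leukocytes and can open membranes. The classical branch starts when C1q, built from A, B and C chains, binds its target, after which C4 and C2 form an enzyme that cleaves C3. The alternative branch amplifies C3 cleavage through factor B, and both lead to C5, whose small fragment C5a acts on the receptor C5aR1 of myeloid cells. The liver makes most plasma complement, whereas C1q is made largely by macrophages and dendritic cells, and fibroblasts make several of the other components.

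All mice were female and carried IN scaffolds from 4 weeks of age. From 6 weeks an IN was taken out weekly, in rotation over 4 sites, and a new one was put in its place. NOD/ShiLtJ mice, which develop autoimmune diabetes, were divided by outcome into progressors, which became hyperglycemic, and nonprogressors, which did not. NOR/LtJ mice, a related strain without diabetes, served as the control. Total RNA of whole explanted IN biopsies was sequenced in 2 batches. Batch 1 held 74 samples. Its NOR mice were sampled every 4 weeks from 6 to 22 weeks of age (4 or 5 samples at each) and its NOD nonprogressors at the same ages (4 samples each). Its progressors were sampled at 6 weeks of age, at 5, 3 and 1 weeks before onset and at onset (5 samples each), and 6 further nonprogressor samples were labelled by days after implantation and entered no test. Batch 2 held 46 samples of NOD mice and no NOR mice. It comprised nonprogressors at 6 weeks (7 samples) and 14 weeks (6 samples), and progressors at 6 weeks, at 7, 5, 3 and 1 weeks before onset and at onset (8 samples at 7 weeks before onset, 5 at each other time). Biopsies of a mouse at successive times came from the same animal, and every progressor became diabetic, so that time to onset and age cannot be told apart. Repeated surgery and replacement of implants also went along with age. Changes against 6 weeks therefore cannot be assigned to age, disease or implant history.

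Sequencing depth was uneven in batch 1, with 4722396 to 56185434 counts per library, and even in batch 2, with 29029239 to 43880986 counts. A ribosomal RNA gene took 85.7% of the NOR library of mouse 5 at 18 weeks, leaving 284 counts of *C1qa* and none of *Hc*, and the nonprogressor library of mouse 3 at 18 weeks had the lowest total. Levels are given in CPM, counts relative to the library total after scaling by the trimmed mean of M values (TMM). A gene was called where the adjusted p (edgeR quasi-likelihood test, Benjamini-Hochberg over all genes tested) was under 0.05. The biopsies held mixed tissue, so fewer cells of a type and less RNA per cell cannot be told apart. Hepatocyte markers were close to absent (summed level of 6 markers at most 5.45 CPM, *Alb* detected in 44 of 74 batch 1 samples at a median of 0.0418 CPM).

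The genes lie in few places of the mouse genome (GRCm38). *C1qa* (chr4:136895917-136898803), *C1qc* (chr4:136889804-136893065) and *C1qb* (chr4:136880129-136886187) are neighbours on chromosome 4. *C4b* (chr17:34728380-34743882), *Cfb* (chr17:34856374-34862518) and *C2* (chr17:34862604-34898265) lie together in the class III region of the major histocompatibility complex on chromosome 17, which also holds *C3* (chr17:57203970-57228136). *C5ar1* is at chr7:16246743-16259540 and *Hc* at chr2:34983331-35061438. The 250 bases before the start of 4 of the genes are shown so that the C1q genes, *C5ar1* and *C3* can be set beside each other. They are the RefSeq sequences of GRCm38.p6, a C57BL/6J reference and not a NOD or NOR sequence. All are given 5′ to 3′ on the strand of the gene, here the minus strand. The positions are chr4:136886201-136886450 for *C1qb*, chr4:136892915-136893164 for *C1qc*, chr17:57228137-57228386 for *C3* and chr7:16259339-16259588 for *C5ar1*, and the RefSeq starts of *C1qc* and *C5ar1* lie within the gene limits given above. Capitals mark matches on either strand to AGGAAGT, a core of PU.1 and other ETS factors, which reads ACTTCCT where it lies on the other strand, and to TTNNGNAA, a C/EBP motif. The motifs were picked after the sequences had been read.
C1qb: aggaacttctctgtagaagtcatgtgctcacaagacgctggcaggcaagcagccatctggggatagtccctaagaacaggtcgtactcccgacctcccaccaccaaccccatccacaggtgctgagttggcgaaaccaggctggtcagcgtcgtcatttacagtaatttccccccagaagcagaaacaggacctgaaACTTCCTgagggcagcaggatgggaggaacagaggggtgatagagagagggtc
C1qc: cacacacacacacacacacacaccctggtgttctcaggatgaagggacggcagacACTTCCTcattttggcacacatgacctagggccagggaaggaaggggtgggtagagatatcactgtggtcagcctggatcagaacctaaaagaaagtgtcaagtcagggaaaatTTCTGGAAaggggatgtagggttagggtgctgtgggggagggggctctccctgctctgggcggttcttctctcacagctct
C3: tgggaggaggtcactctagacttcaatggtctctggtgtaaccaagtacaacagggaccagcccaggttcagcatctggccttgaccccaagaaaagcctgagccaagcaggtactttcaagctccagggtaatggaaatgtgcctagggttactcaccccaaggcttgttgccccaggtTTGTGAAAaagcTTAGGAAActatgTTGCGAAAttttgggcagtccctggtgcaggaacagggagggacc
C5ar1: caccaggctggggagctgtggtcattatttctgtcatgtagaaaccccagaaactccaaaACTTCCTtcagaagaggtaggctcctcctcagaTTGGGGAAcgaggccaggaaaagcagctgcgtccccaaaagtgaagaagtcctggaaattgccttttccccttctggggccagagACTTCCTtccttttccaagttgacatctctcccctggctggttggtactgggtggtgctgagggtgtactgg
AGGAAGT occurred 1 time in the *C1qb* sequence (53 bases before the start), 1 time in *C1qc* (195 bases before) and 2 times in *C5ar1* (190 and 72 bases before), and it did not occur in *C3* or in *Hc*. Of 32851 promoters of this length, 7.69% held it at least 1 time and 0.402% at least 2 times. TTNNGNAA occurred 3 times in *C3*, at 70, 58 and 45 bases before the start, a number reached in 2.61% of promoters. It was found 1 time each in *C1qc* and *C5ar1*, as in 36.8% of promoters with at least 1 match. No promoter sequence was at hand for the other members apart from *Hc*.

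To set genes beside each other, levels were divided by the length of all annotated exons of a gene merged. This length can exceed that of the transcripts made, so the order is approximate. On this scale *C1qa* and *C1qb* were the highest members. Their median levels in batch 1 and batch 2 were 198.3 and 187.0 CPM per kb for *C1qa* and 199.1 and 200.8 for *C1qb*. *C3* came next at 120.0 and 162.3 CPM per kb. *C1qc* stood at 97.2 and 91.5 CPM per kb and *C4b* at 81.6 and 136.7, so that their order differed between the batches. The merged length was 1931 bases for *C1qc* against 1040 for *C1qa* and 1088 for *C1qb*. Before division by length the chains were closer, with batch 1 medians of 187.6, 206.3 and 216.6 CPM in that order. Lower levels were found for *C5ar1* (24.5 and 31.7 CPM per kb), *Cfb* (20.2 and 28.9) and *C2* (7.34 and 14.8). The lowest member was *Hc*, which encodes C5, at 0.162 and 0.333 CPM per kb, and it rested on a median of 30 counts per sample in batch 1 and 79 in batch 2. NOD mice carry a mutated *Hc* allele that yields no secreted C5, so the *Hc* values describe RNA and not protein.

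Across samples the C1q chains were the members most closely correlated. The samples of a batch include several biopsies per mouse and are not independent. In batch 1 (n = 74) and batch 2 (n = 46), Pearson's r of log2 CPM was 0.957 and 0.981 between *C1qa* and *C1qb*. Between *C1qa* and *C1qc* it was 0.984 and 0.969. Among the components encoded on chromosome 17, r was 0.827 and 0.829 for *C4b* and *Cfb*, 0.663 and 0.867 for *C2* and *Cfb*, 0.685 and 0.755 for *C2* and *C4b*, and 0.818 and 0.551 for *C3* and *C4b*. It was lower for *C3* and *Cfb* (0.684 and 0.257) and for *C2* and *C3* (0.454 and 0.341). Pairs of a C1q chain with *C2*, *C4b* or *Cfb* lay between 0.478 and 0.735, within the range of these values. These correlations are descriptions and carry no test. Among 21163 genes, those with the highest mean r over both batches were *Cfp* (0.814), *Clec4a1* (0.790) and *P2ry12* (0.764) for *C1qa*. For *C1qb* they were *Clec4a1* (0.809), *Cfp* (0.803) and *Serping1* (0.775), and for *C1qc* *Clec4a1* (0.806), *Cfp* (0.795) and *Pld4* (0.754). The genes nearest to *C2* were *Fbln1* (0.937), *Plxdc2* (0.931) and *Mmp2* (0.914), and those nearest to *C4b* were *Ggt5* (0.925), *Scara3* (0.914) and *Pi16* (0.908). *Fbln1* and *Pi16* were also on the fibroblast marker list used here, and *Mmp2* is a matrix metalloproteinase. *Cfb* came closest to *Axl* (0.916), *Lbp* (0.907) and *Ly6a* (0.901), and *C3* to the eotaxin gene *Ccl11* (0.856) and the mast cell proteases *Mcpt4* (0.843) and *Tpsb2* (0.835). For *C5ar1* the nearest genes were *Itsn1* (0.704), *P2ry6* (0.695) and *Cd300ld3* (0.637), and for *Hc* they were *Frem1* (0.762), *Enpp5* (0.749) and *Gm17147* (0.749).

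**Figure D1:**
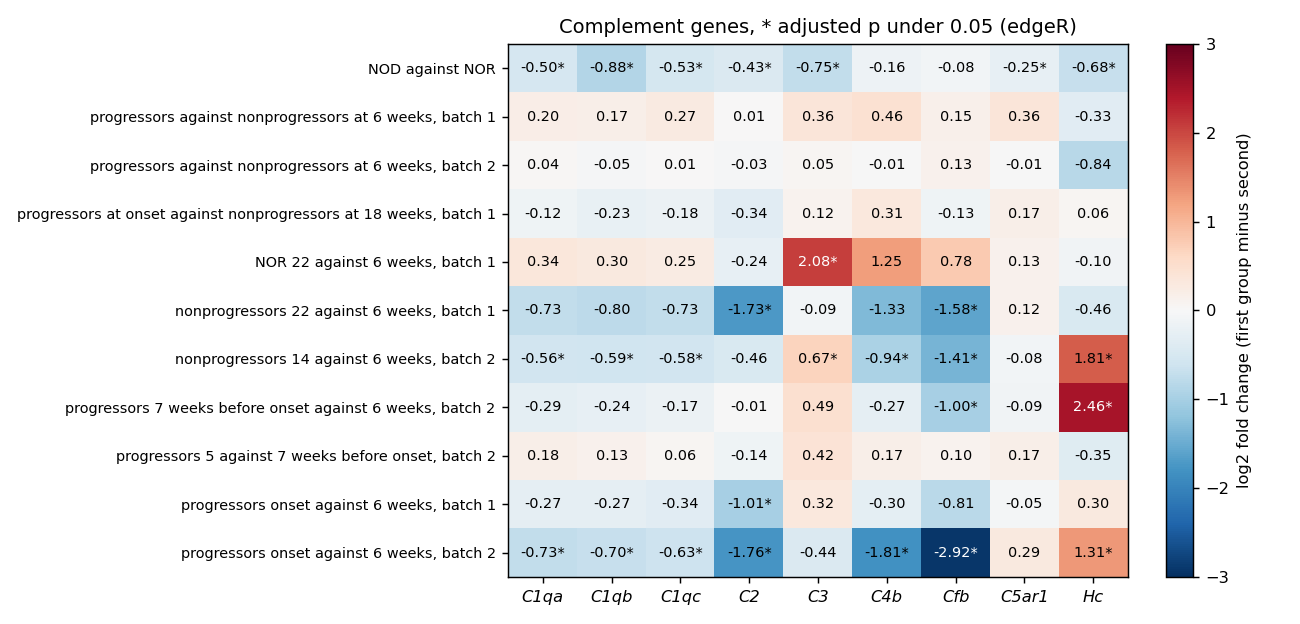
Log2 fold changes of the 9 complement genes (columns) in 11 comparisons (rows), colored from blue (lower in the first group named) to red (higher), with an asterisk at an adjusted p under 0.05 from edgeR. Lower levels filled the strain comparison (7 of 9 called) and onset against 6 weeks in batch 2 (6 of 9 called lower, *Cfb* at -2.92), and no member was called between progressors and nonprogressors.

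The strains were compared in batch 1 with the counts of all timed biopsies of a mouse summed to 1 library, for 5 NOR and 9 NOD mice. Times were not matched between the strains, because progressors were sampled after 6 weeks of age by weeks before onset. NOR mice 2 and 3 gave 4 biopsies each and the other mice 5, and deeper libraries weighed more in the sums. In NOD mice 7 of the 9 members were lower and none was higher, while 8.98% of all 23387 genes tested were called in either direction. The median log2 fold change (NOD minus NOR) of the members was -0.50 and that of all genes was -0.00161. The members were chosen with earlier results of these data known, and the C1q chains varied closely together, so their calls are not independent. The C1q chains were among the genes that were lower. *C1qb* stood at 340.8, 342.3, 345.4, 315.0 and 348.5 CPM in the 5 NOR mice. In the 9 NOD mice its lowest, median and highest levels were 148.1, 189.1 and 227.4 CPM, so that every NOD mouse was below every NOR mouse. The log2 fold change of *C1qb* was -0.88 ± 0.102 (SE, adjusted p = 2.78e-05, edgeR). *C1qa* measured 269.5, 270.0, 265.2, 241.9 and 259.1 CPM in NOR and 151.8 to 230.0 CPM in NOD mice, again without overlap (log2 fold change -0.50 ± 0.103, adjusted p = 0.00655). *C1qc* gave 249.4, 249.3, 246.5, 216.2 and 251.8 CPM in NOR against 132.2 to 212.2 CPM in NOD mice (-0.53 ± 0.111, adjusted p = 0.00675), with no overlap either.

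The central component *C3* averaged 1002 ± 145 CPM (SD, n = 5; range 772.1 to 1130) in NOR and 604.2 ± 105 CPM (SD, n = 9; range 431.3 to 804.0) in NOD mice, and the ranges overlapped at their edges. Its log2 fold change was -0.75 ± 0.120 (adjusted p = 0.000784, edgeR). *C5ar1*, the C5a receptor, was 73.0 ± 2.09 CPM in NOR (70.9 to 75.4) and 62.2 ± 5.55 CPM in NOD mice (53.5 to 69.6), a small difference without overlap (log2 fold change -0.25 ± 0.0576, adjusted p = 0.0141). *Hc* was 1.54 ± 0.249 CPM in NOR and 0.967 ± 0.229 CPM in NOD mice, with overlap (-0.68 ± 0.155, adjusted p = 0.0118). *C2* was 34.9 ± 2.96 CPM in NOR and 26.3 ± 5.01 CPM in NOD mice (-0.43 ± 0.124), and its adjusted p of 0.0445 rose above 0.05 (0.0579 to 0.103) when any 1 of 9 mice was left out, namely NOR mice 1, 3, 4 or 5, nonprogressors 1 or 2, or progressors 3, 4 or 5. *C4b* (539.9 ± 122 CPM in NOR, 489.8 ± 135 CPM in NOD) and *Cfb* (67.8 ± 3.87 and 65.1 ± 16.6 CPM) gave log2 fold changes of -0.16 and -0.08 with adjusted p of 0.664 and 0.821. The 4 members without overlap compare with 2.454% of all genes whose NOD mice were all below the NOR mice. That share was worked out for this comparison alone. Reads of both strains were counted on GRCm38, a C57BL/6J reference, and effects of strain sequence on the counts were not tested.

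**Figure D2:**
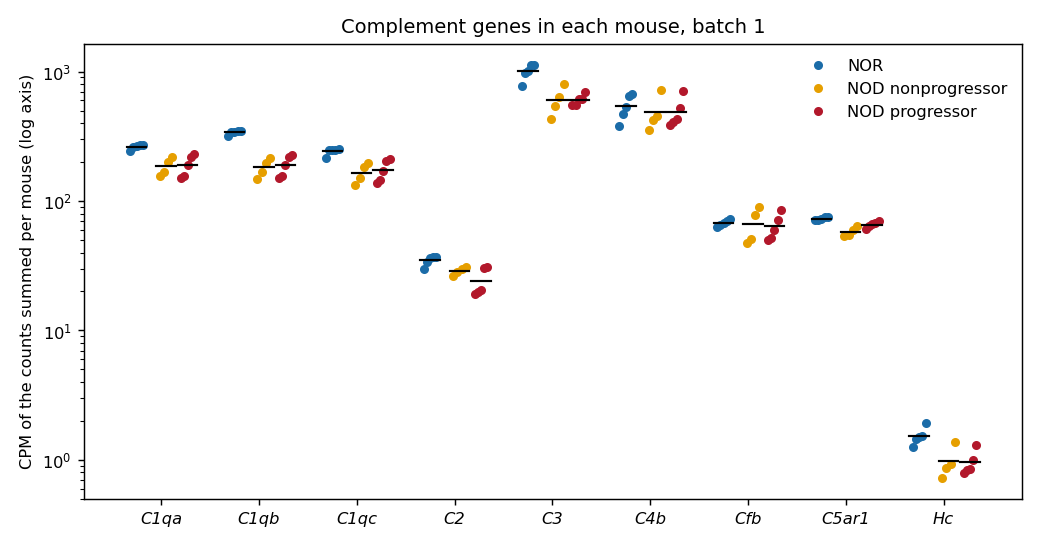
Levels of the 9 complement genes in each mouse of batch 1, as CPM of the counts summed per mouse on a log axis, with points for mice and bars for the mean of NOR mice, NOD nonprogressors and NOD progressors. *C1qb* lay at 315.0 CPM or above in all NOR mice and at 227.4 CPM or below in all NOD mice, while *C4b* and *Cfb* overlapped.

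Without the 22-week biopsies in the sums, an alternative added after the data had been seen, 5 members and 2491 of 23013 genes were called. They were *C1qa* (-0.43, adjusted p = 0.0129), *C1qb* (-0.86, 3.45e-05), *C1qc* (-0.51, 0.00663), *C5ar1* (-0.28, 0.00696) and *Hc* (-0.81, 0.00288). *C3* lost its call there (-0.14, adjusted p = 0.53), and *C2* gave -0.45 (adjusted p = 0.0518).

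The strains were also read at single ages. Nonprogressors and NOR mice were set against each other at each age, a comparison that was added after the data had been seen. At 22 weeks 7 of 9 members were called and lower in nonprogressors, against 7.39% of all genes. None of the 9 was called by edgeR at 6, 10, 14 or 18 weeks, where 1.66%, 1.85%, 2.02% and 3.75% of all genes were. The log2 fold change of *C1qb* at these ages was -0.42, -1.02, -0.83 and -0.46, and the direct test of the age effect between strains, given further on, called none of the 9 in edgeR. In the 6-week biopsies alone, with all NOD mice against NOR, again none was called (2.11% of all genes), and the log2 fold changes were -0.32 for *C1qb*, -0.07 for *C1qa*, 0.02 for *C3* and 0.29 for *C2*. The members called at 22 weeks were *C1qa* (log2 fold change -1.25, adjusted p = 0.00833), *C1qb* (-1.52, 0.00224), *C1qc* (-1.15, 0.0207), *C2* (-1.21, 0.0307), *C3* (-2.36, 0.000521), *C4b* (-2.09, 0.00487) and *Cfb* (-1.67, 0.0261). *C1qb* at that age was 249.1, 407.5, 359.6, 261.0 and 302.7 CPM in NOR and 140.5, 54.42, 128.1 and 119.4 CPM in nonprogressors. *C4b* was 1147, 878.4, 640.4, 544.3 and 1191 CPM in NOR and 164.4, 207.6, 173.8 and 284.0 CPM in nonprogressors. Neither gene overlapped between the strains at 22 weeks. *C5ar1* (-0.20) and *Hc* (-0.32) were not called at 22 weeks or at any other single age. The 22-week nonprogressor libraries stood apart in composition: the 7SL RNA gene *Rn7s2* took 12.8%, 19.2%, 24.3% and 30.5% of their counts, against 4.89% to 8.64% in NOR mice of that age. With the counts of 7SL RNA removed, which was added after the data had been seen, the same number of members was called at 22 weeks (7), and *C1qb* gave -1.50 (adjusted p = 0.00232). TMM scaling already limits the weight of single genes, so this removal could change little. Other differences in composition or RNA quality of these libraries were not tested.

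Cell type markers were read beside these values. A few genes set the sums. Over batch 1 the highest median among macrophage markers was that of *Lyz2* (2650 CPM, next *Cd68* at 965.9 CPM). Among fibroblast markers *Col1a1* (10650 CPM) and *Col1a2* (7363 CPM) stood far above the next, *Dcn* (337.0 CPM). The summed level of 8 macrophage markers was 4600 to 5347 CPM in NOR and 4037 to 5684 CPM in NOD mice, and 2 of the 8 were called lower in NOD, *Csf1r* (log2 fold change -0.26, adjusted p = 0.00923) and *Mertk* (-0.36, adjusted p = 0.0105). The summed fibroblast markers ranged from 19230 to 21370 CPM in NOR and from 16790 to 26760 CPM in NOD mice, and none of the 8 was called. At 22 weeks the macrophage sum was 3305 to 4060 CPM in nonprogressors (median 3364) and 3706 to 5615 CPM in NOR (median 4622), and the fibroblast sum was 10280 to 29470 CPM (median 14090) and 18760 to 23710 CPM (median 20700). Their part in the strain differences of the complement genes was not tested.

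The counts of the C1q chains did not differ in proportion between the strains. The ratio of *C1qb* to *C1qa* counts, which needs no library scaling, was 1.264, 1.268, 1.302, 1.302 and 1.345 in the NOR mice, and in the 9 NOD mice it ran from 0.957 to 1.032. The mean ratio was 1.30 ± 0.0325 (SD, n = 5) against 0.991 ± 0.0251 (SD, n = 9), a log2 difference of -0.39. An exact two-sided permutation test over the 2002 regroupings of mice gave p = 0.000999, the smallest it can give (0.0015 after Benjamini-Hochberg adjustment over 3 ratios). *C1qb* to *C1qc* behaved alike, at 1.396 ± 0.0366 in NOR and 1.096 ± 0.0191 in NOD mice (log2 difference -0.35, exact permutation p = 0.000999, adjusted 0.0015). *C1qc* to *C1qa* was 0.929 in NOR and 0.905 in NOD mice, and the log2 difference of -0.04 did not pass (exact permutation p = 0.177). These ratios were chosen after the strain values had been seen. In the 6-week biopsies alone the log2 difference was -0.28 for *C1qb* to *C1qa* and -0.30 for *C1qb* to *C1qc* (exact permutation p = 0.0028 for each, the smallest for 4 against 9 mice). None of the chains was called by itself at this age. That call was adjusted over all genes tested and the p of the ratios was not, so these outcomes are not comparable. Ratios were not alike between batches: the median *C1qb* to *C1qa* ratio per sample was 1.154 in batch 2 nonprogressors (1.061 to 1.256) and 1.112 in batch 2 progressors (0.9305 to 1.303), against 1.301 in NOR (0.8627 to 1.434), 1.009 in nonprogressors and 0.9667 in progressors of batch 1. Batch 2 had no NOR mice, so the strain ratio could be read only in batch 1. A ratio does not remove effects of strain sequence on the counting of reads, and these were not tested.

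**Figure D3:**
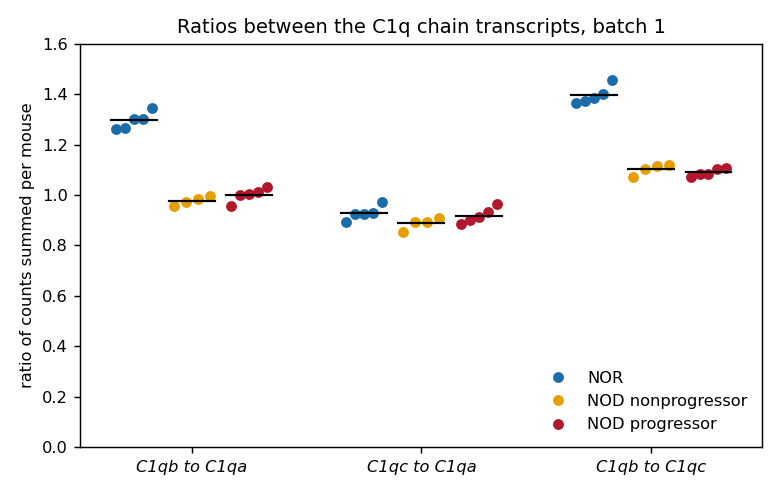
Ratios between the counts of the C1q chain transcripts in each mouse of batch 1, not corrected for transcript length, with points for mice and bars for group means. The ratios of *C1qb* to *C1qa* (1.264 or more in NOR, 1.032 or less in NOD) and *C1qb* to *C1qc* separate the strains, while *C1qc* to *C1qa* overlaps.

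Among NOD mice, the next question was whether outcome groups differed. At 6 weeks of age none of the 9 members was called between progressors and nonprogressors in batch 1 by edgeR, with 0.0521% of all genes called and 1671 genes at an unadjusted p under 0.05. The same held in batch 2, with 0% of genes called and 349 at an unadjusted p under 0.05. The lowest member adjusted p was that of *C5ar1* in batch 1 (log2 fold change 0.36 ± 0.182, adjusted p = 0.632), and the largest fold change in batch 2 was that of *Hc* (-0.84 ± 0.429, adjusted p = 1.0). Standard errors of 0.149 to 0.429 in batch 2 and 0.182 to 0.489 in batch 1 set the differences that could have been seen. Progressors at onset and nonprogressors at 18 weeks, an age within the range of onset, also gave no member (0% of genes called, 1475 at an unadjusted p under 0.05), with log2 fold changes from -0.34 (*C2*) to 0.31 (*C4b*). DESeq2 called none of the 9 in these 3 comparisons either, where it called 41, 13 and 11 genes in all.

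Time was followed within each arm. The share of all genes without overlap was not worked out for these comparisons or for single ages, so absence of overlap is only a description there. In NOR mice *C3* alone of the 9 was called over the 5 ages (adjusted p = 0.000686), against 12.1% of all genes. *C3* was 771.3, 503.4, 269.3 and 554.0 CPM at 6 weeks and 2827, 2538, 1823, 1167 and 2732 CPM at 22 weeks. All 22-week values were above all 6-week values, and *C3* was higher in 4 of 4 mice sampled at both ages. The log2 fold change was 2.08 ± 0.467 (adjusted p = 0.0123), in a comparison that called 0.951% of all genes. It lost the call without NOR mouse 1, 2 or 5 (log2 fold change 2.00 to 2.22, adjusted p 0.0754 to 0.114). *C4b* (log2 fold change 1.25, adjusted p = 0.281) and *Cfb* (0.78, adjusted p = 0.632) were higher in 4 of 4 mice but did not pass. Median *C3* at the ages between was 559.6, 701.8 and 1149 CPM at 10, 14 and 18 weeks.

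In NOD nonprogressors of batch 1 *C2*, which supplies the protease of the classical C3-cleaving enzyme, was the member called over the 5 ages (adjusted p = 0.00136), against 14.6% of all genes. *C2* was 39.66, 32.39, 43.61 and 34.72 CPM at 6 weeks and 9.349, 13.9, 11.86 and 10.05 CPM at 22 weeks. Every 22-week sample was below every 6-week sample, with a log2 fold change of -1.73 ± 0.386 (adjusted p = 0.0012) where 20.3% of all genes were called. No gene took more than 4.43% of the counts in a 6-week nonprogressor library, against the 12.8% to 30.5% of *Rn7s2* at 22 weeks. With 7SL RNA counts removed *C2* gave -1.71 (adjusted p = 0.00117) and *Cfb* -1.56 (0.0234). Under TMM scaling this removal could change little, and other differences between these libraries were not tested. *Cfb*, encoding factor B, was 85.26, 62.27, 137.4 and 106.6 CPM at 6 weeks and 17.75, 32.17, 27.6 and 53.27 CPM at 22 weeks, without overlap. Its log2 fold change of -1.58 ± 0.512 (adjusted p = 0.0223) lost the call without nonprogressor 1 or 3 (-1.43 and -1.31, adjusted p = 0.106 and 0.127). *C4b* gave -1.33 ± 0.506 (adjusted p = 0.0521), and *C1qa*, *C1qb* and *C1qc* gave -0.73, -0.80 and -0.73 (adjusted p = 0.103, 0.0913 and 0.119). Each of these 4 genes was lower in 4 of 4 mice. *C3* was lower in 2 of 4 and higher in 2 of 4 mice. *C5ar1* (0.12) and *Hc* (-0.46) were not called. The summed fibroblast markers had a median of 26490 CPM at 6 weeks (20450 to 31180) and 14090 CPM at 22 weeks (10280 to 29470), with 5 of 8 markers called lower, and their part in these changes was not tested.

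The age effect of the 2 strains, nonprogressors against NOR, was compared directly by the difference of the 22 against 6 week changes. None of the 9 members passed in edgeR (0.771% of all genes did, and 3404 genes had an unadjusted p under 0.05), whereas DESeq2 called 3, *C3*, *C4b* and *Cfb*. The largest differences were in *C4b* (-2.58 ± 0.702, adjusted p = 0.0529), *Cfb* (-2.37 ± 0.702, adjusted p = 0.0744) and *C3* (-2.17 ± 0.649, adjusted p = 0.0766). In the fit without the ribosomal RNA-rich NOR library 1 member passed, *C4b*, and without nonprogressor 2 there were 2, *C3* and *C4b*.

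**Figure D4:**
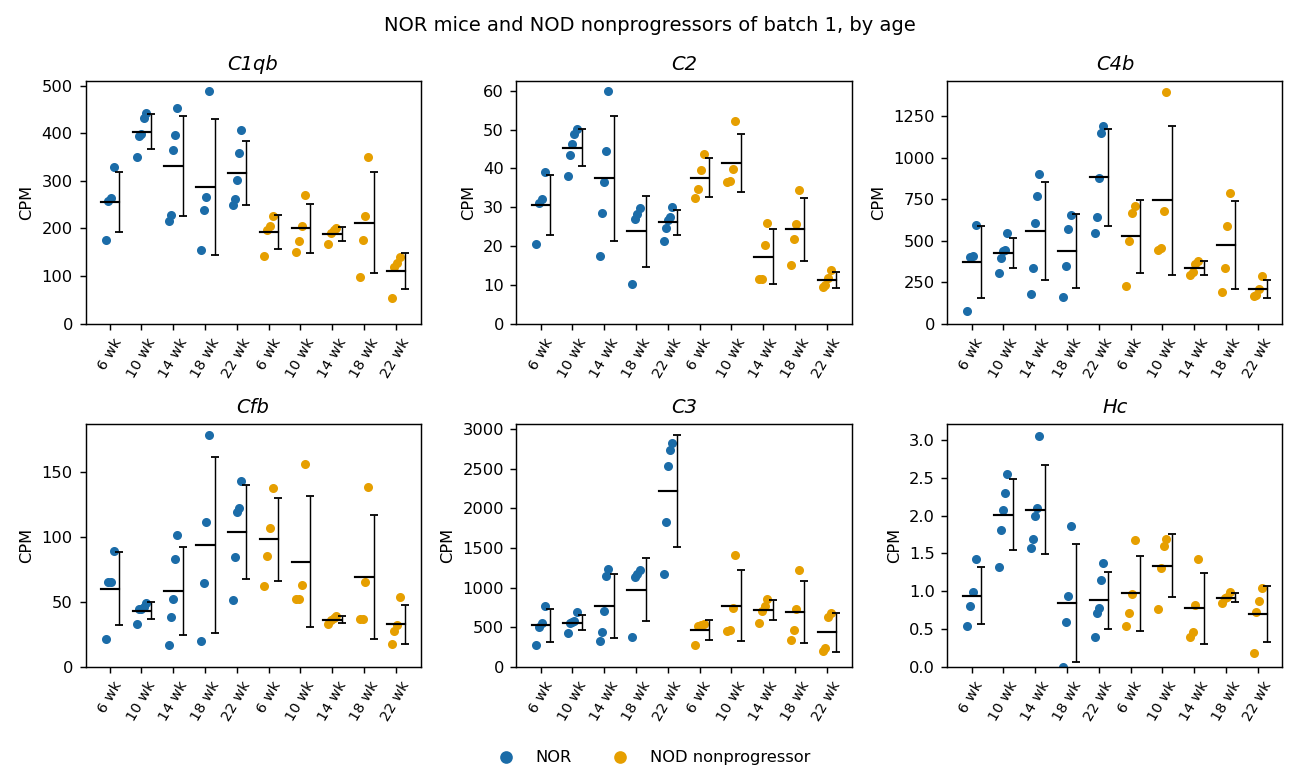
CPM of 6 complement genes by age in NOR mice and NOD nonprogressors of batch 1, with points for samples, horizontal bars for means and error bars for SD. *C3* rose in NOR (524.5 CPM on average at 6 weeks, 2217 CPM at 22 weeks), and *C2* fell in nonprogressors (37.6 to 11.3 CPM).

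Batch 2 gave more calls for nonprogressors, between 6 weeks (7 mice) and 14 weeks (6 mice). There 7 of 9 members passed, against 29.1% of all genes, 5 lower and 2 higher at 14 weeks. *Cfb* fell from a lowest, median and highest level of 147.0, 156.2 and 248.5 CPM to 49.4, 64.0 and 82.6 CPM. *C4b* fell from 812.8, 998.7 and 1161 CPM to 349.5, 553.2 and 726.8 CPM. Neither overlapped between the ages, and the log2 fold changes were -1.41 ± 0.306 (adjusted p = 0.000697) for *Cfb* and -0.94 ± 0.286 (adjusted p = 0.0116) for *C4b*. The C1q chains were lower by less, at -0.56 for *C1qa* (adjusted p = 0.0412), -0.59 for *C1qb* (0.0315) and -0.58 for *C1qc* (0.0422). *C3* moved the other way, from 634.6, 707.8 and 798.7 CPM to 833.7, 1171 and 1514 CPM without overlap, and was higher in 6 of 6 mice (log2 fold change 0.67 ± 0.254, adjusted p = 0.0442). *Hc* rose from 0.592, 0.933 and 1.43 CPM to 0.684, 3.72 and 6.60 CPM, with overlap (1.81 ± 0.384, adjusted p = 0.000546). *C2* (-0.46, adjusted p = 0.0709) and *C5ar1* (-0.08) were not called.

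In a fit with the mouse as a replicate block, *C4b*, *Cfb* and *Hc* passed in this comparison, and adjusted p was 0.0758 for *C1qa*, 0.0572 for *C1qb*, 0.0694 for *C1qc* and 0.133 for *C3*. Leaving out a mouse gave 3 to 7 calls. It lowered the count to 3 or 4 without mouse 6, 7, 8, 9, 10 or 11, at which the C1q chains lost theirs, and *C3* lost its call without mouse 5, 6, 7, 8, 9 or 11. Over the same interval the fibroblast marker sum went from a median of 37290 CPM (29400 to 49020) to 14950 CPM (10390 to 24450), without overlap, and 7 of its 8 markers were called lower. The neutrophil marker sum was 4.46 to 7.24 CPM at 6 weeks and 7.93 to 37.1 CPM at 14 weeks. Skeletal muscle markers went from a median sum of 10.5 CPM (2.47 to 422.1) to 3031 CPM (9.23 to 5727). The adipocyte marker sum went from 1211 CPM (893.1 to 1996) to 2301 CPM (1739 to 3113). It was mostly *Lpl* (median 1589 CPM over batch 2, the next being *Fabp4* at 54.24 CPM), so it rests largely on a single gene. Whether the cells behind these markers bear on the complement values was not tested.

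In progressors of batch 1 *C4b* (adjusted p = 0.0214) and *Cfb* (adjusted p = 0.0357) were called over the 5 times, against 20.5% of all genes. Both were lowest on average at 5 and 3 weeks before onset. *Cfb* ranged from 94.7 to 123.5 CPM at 6 weeks of age, from 24.4 to 56.1 CPM and from 19.5 to 45.6 CPM at 5 and 3 weeks before onset, and from 48.9 to 117.1 CPM at 1 week before. At onset it spread from 12.97 to 134.3 CPM, wider than at any earlier time. *C4b* ranged from 547.4 to 956.2 CPM at 6 weeks of age and from 151.6 to 442.9 CPM at 3 weeks before onset. The calls depended on single mice: *C4b* lost its call without progressor 2, 3 or 4 (adjusted p = 0.185, 0.0516 and 0.0884), and *Cfb* without any 1 of the 5 (0.0583 to 0.133).

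At onset against 6 weeks in batch 1, 1 member passed, against 16.9% of all genes. *C2* was 39.46, 43.5, 41.64, 30.93 and 33.49 CPM at 6 weeks and 27.23, 28.41, 7.584, 23.46 and 6.958 CPM at onset. It was lower in 5 of 5 mice and did not overlap, with a log2 fold change of -1.01 ± 0.336 (adjusted p = 0.0312), and the call was lost without progressor 3 or 5 (adjusted p = 0.183 and 0.137). *Cfb* gave -0.81 (adjusted p = 0.206), and the C1q chains gave -0.27 to -0.34. Log2 fold changes of the others, also not called, were 0.32 for *C3*, -0.30 for *C4b*, -0.05 for *C5ar1* and 0.30 for *Hc*.

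The progressors of batch 2 changed more. Over their 6 times 6 of 9 members were called, against 32.9% of all genes: *C2* (adjusted p = 7.75e-07), *C3* (0.00202), *C4b* (0.000536), *Cfb* (1.31e-06), *C5ar1* (0.00741) and *Hc* (0.000286). At onset against 6 weeks 7 of 9 passed, against 36.8% of all genes, 6 lower and 1 higher. *Cfb* showed the largest change of a member in any comparison here. It measured 172.5, 47.09, 205.1, 312.3 and 202.4 CPM at 6 weeks and 43.73, 16.51, 19.89, 20.14 and 23.5 CPM at onset. Every onset sample was below every 6-week sample, and the log2 fold change was -2.92 ± 0.363 (adjusted p = 4.36e-08, edgeR). *C2* was 64.41, 51.07, 72.09, 66.48 and 72.36 CPM at 6 weeks and 24.9, 14.35, 16.0, 19.03 and 21.88 CPM at onset, again without overlap (-1.76 ± 0.228, adjusted p = 9e-08). *C4b* was 1172, 132.8, 1227, 1503 and 924.6 CPM at 6 weeks and 277.9, 246.6, 258.6, 294.3 and 332.0 CPM at onset. In this gene 1 mouse (progressor 7) was low already at 6 weeks and below all onset samples, and the log2 fold change was -1.82 ± 0.330 (adjusted p = 3.44e-05).

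The C1q chains also fell between 6 weeks and onset. *C1qb* was 249.5, 155.5, 222.3, 340.7 and 228.3 CPM at 6 weeks and 127.3, 145.0, 182.6, 96.65 and 184.0 CPM at onset. It was lower in 5 of 5 mice, but the groups overlapped because progressor 7 started low. The log2 fold changes were -0.73 ± 0.240 for *C1qa* (adjusted p = 0.0146), -0.70 ± 0.238 for *C1qb* (0.0182) and -0.63 ± 0.248 for *C1qc* (0.0443), the last at 0.0699 with the mouse as a replicate block. All 3 lost the call without progressor 6 (adjusted p = 0.0676, 0.066 and 0.158) or without progressor 9 (0.128, 0.165 and 0.267). *C3* (-0.44, adjusted p = 0.235) and *C5ar1* (0.29, adjusted p = 0.15) were not called between these times.

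*Hc* was the 1 member called higher at onset in batch 2. In batch 1 edgeR did not call it over the 5 times (adjusted p = 0.786) or at onset against 6 weeks (log2 fold change 0.30, adjusted p = 0.699). In batch 2 *Hc* was at 0.6743, 0.5043, 0.6506, 0.362 and 0.5381 CPM at 6 weeks and 1.913, 0.5741, 0.4605, 2.448 and 1.384 CPM at onset. Of the onset samples, 3 were above all 6-week samples and the other two lay within their range (log2 fold change 1.31 ± 0.456, adjusted p = 0.022), and the call was lost without progressor 6, 9 or 10 (adjusted p = 0.0764, 0.176 and 0.0553). *Hc* had already risen by 7 weeks before onset, to a lowest, median and highest level of 1.01, 2.98 and 5.22 CPM in 8 mice, all above the 6-week samples. There its log2 fold change was 2.46 ± 0.437 (adjusted p = 0.000105), and it was higher in 4 of 4 mice with both samples in batch 2. The other 4 mice of that time carry the numbers of batch 1 progressors, whose 6-week biopsies were sequenced in batch 1 and held up to 1.493 CPM of *Hc*. Without these 4 mice, an alternative added after the data had been seen, *Hc* gave 2.48 (adjusted p = 0.00124) and *Cfb*, described next, -1.09 (adjusted p = 0.045).

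*Cfb* was the other member called at 7 weeks before onset against 6 weeks (22.1% of all genes called). Its lowest, median and highest levels were 64.65, 99.71 and 109.9 CPM at 7 weeks before onset, and the log2 fold change was -0.996 ± 0.299 (adjusted p = 0.0144). With the mouse as a replicate block it was -0.96 (adjusted p = 0.0934), and without progressor 9 it was -0.75 (adjusted p = 0.0777). This comparison shares its 6-week samples with that of onset. Between 7 and 5 weeks before onset no member passed in edgeR, where 0.055% of all genes were called and 1352 had an unadjusted p under 0.05, nor in DESeq2, which called 10 genes. The member log2 fold changes there ran from -0.36 (*Hc*) to 0.42 (*C3*).

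*C3* and *C5ar1* were called over the course but not between its ends. At onset against 6 weeks *C3* was lower and *C5ar1* higher in 4 of 5 mice each. Mean *C3* was 738.2 ± 354 CPM at 6 weeks (SD, n = 5), 1034 ± 425 CPM at 7 weeks before onset (n = 8) and 1383 ± 495 CPM at 5 weeks before (n = 5). It was 1370 ± 439 and 1033 ± 340 CPM at 3 and 1 weeks before and 543.3 ± 64.2 CPM at onset. All 5 onset samples of *C3* (482.8 to 651.3 CPM) were below all samples at 5 weeks before onset (807.3 to 2137 CPM). Mean *C5ar1* was 77.0 ± 16.6, 72.1 ± 18.1 and 81.3 ± 14.5 CPM at 6 weeks, 7 weeks before and 5 weeks before onset. It was 110.8 ± 12.3, 96.5 ± 10.2 and 94.4 ± 18.1 CPM at 3 and 1 weeks before and at onset.

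Over this course the summed fibroblast markers fell from a median of 40780 CPM at 6 weeks (30940 to 46250) to 18710 CPM at 7 weeks before onset (11390 to 22950) and 10210 CPM at onset (5139 to 14490), and 8 of 8 fibroblast markers were called lower at onset. Between 6 weeks and 7 weeks before onset *Cfb* fell as well, while mean *C2* was 65.3 and 64.9 CPM (log2 fold change -0.01) and *C4b* was not called (-0.27, adjusted p = 0.551). At onset *C2*, *C4b* and *Cfb* were all lower, and the part of these cells was not tested. The macrophage marker sum was 6549 to 8845 CPM at 6 weeks (median 6922) and 7434 to 10070 CPM at onset (median 9482). It was mostly *Lyz2* (median 4696 CPM over batch 2, the next being *Cd68* at 916.6 CPM). The C1q chains fell over the same interval, and the part of macrophages was not tested. Of the 8 macrophage markers, *Csf1r* was called higher (log2 fold change 0.40, adjusted p = 0.0126) and *Fcgr1* lower (-1.64, adjusted p = 0.000389) at onset.

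**Figure D5:**
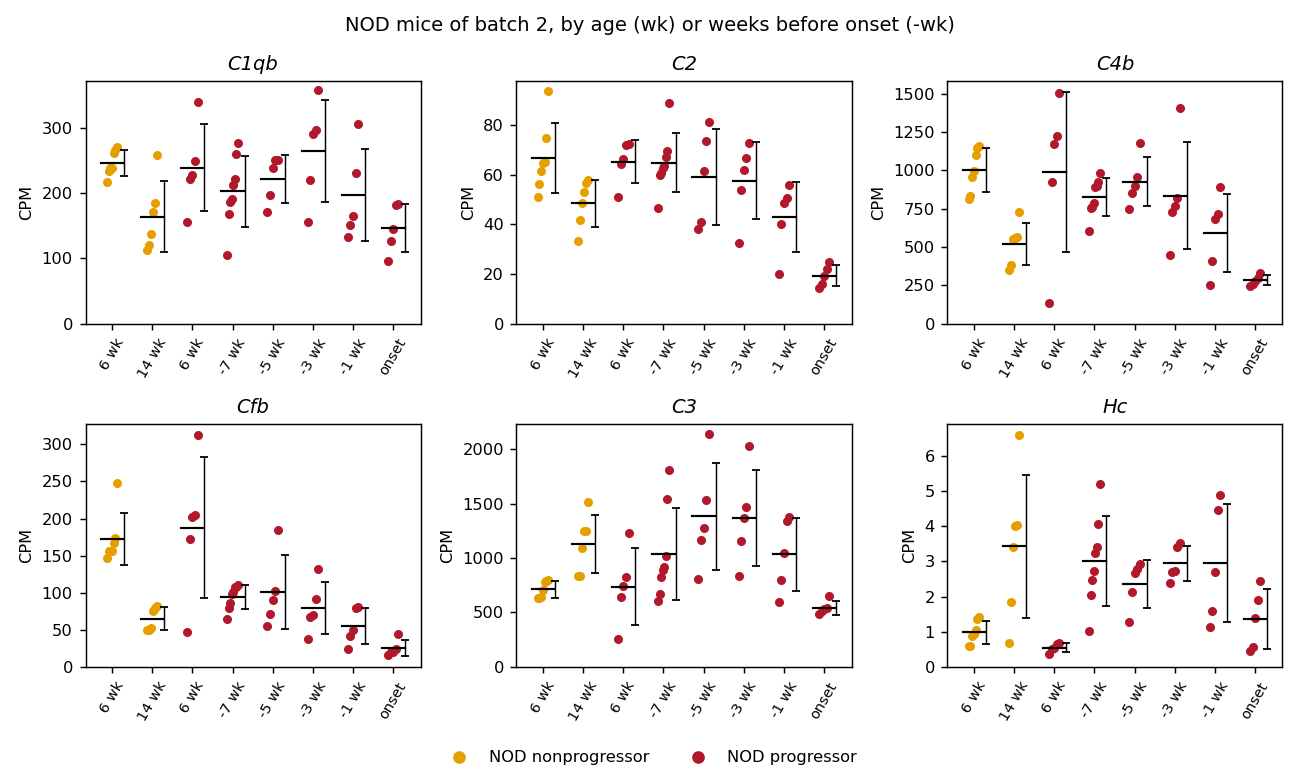
CPM of 6 complement genes in NOD mice of batch 2, for nonprogressors by age and progressors from 6 weeks of age through the weeks before onset to onset, with points for samples, horizontal bars for means and error bars for SD. *Cfb* fell from a mean of 187.9 CPM at 6 weeks to 24.7 CPM at onset in progressors, where *Hc* was highest on average at 7 weeks before onset (3.03 CPM).

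Other genes of the pathway were read from a list of 46, grouped by role, of which 34 were tested in batch 1 and 36 in batch 2. In the strain comparison 6 were called, where 8.98% of all genes were, 1 higher and 5 lower in NOD, with a median log2 fold change of -0.00139 over the 34. *Masp2*, a lectin pathway protease, was higher (log2 fold change 3.01, adjusted p = 1.22e-06). The lower genes were the second C5a receptor *C5ar2* (-0.81, adjusted p = 0.000205), the integrin gene *Itgax* of complement receptor 4 (-0.52, 0.00587), ficolin A *Fcna* (-0.40, 0.00812), the C1 inhibitor *Serping1* (-0.50, 0.0193) and properdin *Cfp* (-0.32, 0.0209). The last of these was also among the genes nearest to all 3 C1q chains. Between progressors and nonprogressors at 6 weeks and at onset against 18 weeks none of the list passed in edgeR.

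The list was read over time as well. At onset against 6 weeks in batch 2, 23 of 36 were called (36.8% of all genes were), 7 higher and 16 lower. Of the 10 recognition molecules and proteases tested 7 were lower, led by the C1 proteases *C1s1* (-1.80, adjusted p = 7.36e-08), *C1s2* (-1.58, 1.87e-07) and *C1ra* (-1.47, 4.27e-06). Decay accelerating factor *Cd55*, a brake on the C3-cleaving enzymes, was lower by the smallest p (-3.23, 7.21e-09). Of the 8 receptors 5 were higher and 1 was lower. The higher ones included *Itgax* (1.35, 6.29e-08), its partner *Itgb2* (0.74, 3.5e-05) and *C5ar2* (1.02, 0.000583). In batch 1 the same times gave 5 calls of 34, all higher and none of them a recognition molecule or protease, where 16.9% of all genes were called. Among them were *Itgb2* (0.56, 0.014), *Itgax* (0.64, 0.0229) and *C4a* (0.64, 0.0418). In nonprogressors 14 of 36 were called at 14 against 6 weeks in batch 2 (29.1% of all genes), 4 higher and 10 lower, led by *Cd55* (-1.67, 0.000124) and by *Cfd*, encoding factor D (6.55, 0.000147). Nonprogressors at 22 against 6 weeks gave 10 of 34 (20.3% of all genes), 5 higher and 5 lower, among them *Itgam* (1.202, 0.000941) and *Vsig4*, a receptor of macrophages for C3 fragments (-2.76, 0.00894). Receptors went both ways in nonprogressors, 4 higher and 1 lower at 22 weeks, and 2 higher and 1 lower at 14 weeks in batch 2. NOR mice gave 1 of 34 (0.951% of all genes), *Masp1* (1.39, adjusted p = 0.0289). No test between the roles was made.

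Some reads could be shared with other genes. *C4a*, a near-identical copy of *C4b*, had a median of 3.754 CPM in batch 1 and 3.869 CPM in batch 2, and reads of the pair may have been split by the counting. The readthrough gene *Gm20547* overlaps *C2* and *Cfb* on the same strand and had at most 14 counts in a sample. *Zbtb12* lies opposite *C2* and *Gm13449* opposite *Hc*, and no strand setting of the counting was given in the sources used here, so these pairs cannot be told apart with certainty.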

How the data were processed

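The deposited tables, 1 for each batch, hold expected counts per Ensembl gene, given by the authors as whole numbers. The submitters' processing notes name cutadapt, FastQC, STAR, RSEM, MultiQC and GRCm38. Ribosomal RNA was depleted before total RNA sequencing. Versions and the strand setting were not given in the sources used here. Column names matched sample titles.

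Members were matched by gene symbol. The genes and lists were chosen with earlier results of these data known. Samples were grouped by the strain, outcome and time in their titles. None of the 239 within-group sample pairs looked like a library deposited again (chi-square over degrees of freedom at least 12.0).

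The quasi-likelihood test of edgeR 4.0.16 (R 4.3.3) was applied to the counts after filterByExpr and TMM scaling, each batch with all its groups in 1 fit, except that strains were compared on counts summed per mouse. An adjusted p under 0.05 was a call. SEs are of log2 fold changes. CPM values are unlogged, and correlations used log2 CPM with a prior count of 2. Scripts were tested on simulated counts. Alternatives were DESeq2 1.42.0, no filter, the compared groups alone, a replicate block, both batches together and single mice or doubtful libraries left out.

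Equal mouse numbers within an arm are the same animal by the titles, so they pair the samples. Correlation of same-mouse deviations from group means averaged 0.00708 (NOR), 0.0213 and -0.0192 (nonprogressors and progressors, batch 1), -0.0943 and 0.00874 (batch 2). Named genes were the members, with those not called left out in places, from the wider list up to 4 genes per direction by lowest p, and the 3 most correlated genes of each member. Ratios were tested by exact permutation in scipy 1.17.1.

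Depth sets precision: *Hc* rests on few counts. Fold changes are relative to the rest of each library.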

Additional observations from a re-analysis of the deposited data

Results flagged for a closer look

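Within groups of 4 to 10 samples, 10 of 207 gene and group combinations held a sample far from the others by Dixon's criterion at the 95% level, and chance flags about 1 in 20 groups. NOR mouse 3 at 18 weeks was low in 3 genes, at 10.08 CPM of *C2* (next sample 27.09 CPM), 374.1 CPM of *C3* (next 1133 CPM) and 57.37 CPM of *C5ar1* (next 82.36 CPM). Nonprogressor 2 of batch 1 was low in *C3* at 6 weeks (269.8 CPM, next 509.7 CPM) and in *C1qa* at 22 weeks (57.75 CPM, next 123.7 CPM). The library name of its 6-week sample ends in REPREP, and what was repeated is not stated. High values were found for *Cfb* in nonprogressor 4 of batch 1 at 10 weeks (156.1 CPM, next 62.86 CPM) and in nonprogressor 11 of batch 2 at 6 weeks (248.5 CPM, next 173.8 CPM). *Cfb* was also high at onset in progressor 6 of batch 2 (43.73 CPM, next 23.5 CPM). In progressors of batch 1, *C3* was high in mouse 5 at 3 weeks before onset (885.4 CPM, next 356.4 CPM) and *C4b* in mouse 1 at 5 weeks before onset (475.5 CPM, next 245.6 CPM).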

How the results depend on the processing

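Of the 9 members, the number called between strains went from 7 to 0 in the 6-week biopsies alone and in nonprogressors against NOR at 6, 10, 14 or 18 weeks, the last 4 added after the data had been seen. In the 6-week biopsies the sign turned for *C2* (0.29), *C3* (0.0151) and *C5ar1* (0.0184). Against NOR it turned for *C2* (0.29) and *Hc* (0.0359) at 6 weeks, *C3* (0.44) at 10 weeks and *C2* (0.0229) at 18 weeks. *C2* between strains had adjusted p of 0.0614 without the filter and 0.136 with each biopsy as its own sample, and *Hc* had 0.0738 with nonprogressors as the only NOD mice. With only the compared groups fitted, calls became 2 for NOR over ages (1 before, *Hc* added), 3 for nonprogressors over ages (1 before, *C4b* and *Cfb* added), 0 at onset against 6 weeks in batch 1 (1) and 2 for the age effect between strains (0). Without a filter they became 4 for nonprogressors at 14 weeks (7), 1 for progressors of batch 1 over times (2) and 0 at onset in batch 1 (1). DESeq2 gave 3 for nonprogressors over ages, 4 for progressors of batch 1 over times (*C2* and *C3* added) and 3 for the age effect between strains. With both batches and a batch term, onset against 6 weeks gave 4 (1 in batch 1, 7 in batch 2) and the course of batch 2 gave 3 (6). Without the shallow library, nonprogressors over ages gave 2 (*Cfb* added), and without the ribosomal RNA-rich library the age effect between strains gave 1, both added after the data had been seen. The replicate block, with samples paired by mouse, lowered the count from 7 to 3 for nonprogressors at 14 weeks and from 2 to 1 at 7 weeks before onset, and it ended the call of *C1qc* at onset. The cause of these changes was not tested.

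Leaving out each mouse gave 6 to 7 calls between strains, 0 to 1 for NOR at 22 weeks, 1 to 2 for nonprogressors at 22 weeks, 3 to 7 at 14 weeks, 0 to 2 for progressors of batch 1 over times, 0 to 1 at their onset, 3 to 7 at onset in batch 2 and 0 to 2 for the age effect between strains (2 without nonprogressor 2). It left 1 to 1 for NOR and for nonprogressors over ages, 6 to 6 for progressors of batch 2 over times, 2 to 2 at 7 weeks before onset, and 0 to 0 between 7 and 5 weeks before onset and in the 3 comparisons of progressors with nonprogressors. An equal count can hold other members. At 7 weeks before onset, *C3* took the place of *Cfb* when progressor 9 was left out. The log2 strain difference of the ratio stayed between -0.40 and -0.37 for *C1qb* to *C1qa*, between -0.36 and -0.33 for *C1qb* to *C1qc* and between -0.0513 and -0.0211 for *C1qc* to *C1qa*. For *C1qc* to *C1qa* it was 0.0252 in the 6-week biopsies, -0.0651 with nonprogressors as the only NOD mice (exact permutation p = 0.0317) and -0.0489 without progressor 1 (exact permutation p = 0.0497). Over all alternatives, 454 values of called members kept their call, 116 lost it and 7 turned sign.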

Other observations

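Nonprogressor samples of batch 1 labelled by days after implantation, 2 per day, entered no comparison. Both 31-day samples had high *C3*, at 1688 and 1696 CPM, against 789.8 and 1072 CPM at 38 days and 1364 and 1431 CPM at 108 days. *Hc* was 1.839 and 2.771 CPM at 31 days, 2.744 and 2.266 CPM at 38 days, and 2.518 and 3.215 CPM at 108 days. *C2* was 47.79 and 48.29 CPM, 44.41 and 39.53 CPM, and 46.87 and 50.15 CPM at these days, above all 22-week nonprogressor samples. *C1qb* was 329.8 and 338.3 CPM at 31 days, 191.1 and 279.0 CPM at 38 days, and 336.9 and 371.1 CPM at 108 days. *C4b* lay between 448.5 and 903.6 CPM and *Cfb* between 63.75 and 116.2 CPM over the 6 samples. The titles number these samples as mice 1 and 2 and give days after implantation in place of an age, and no test was made.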
